A study of Mus musculus with 5 samples.

Results

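The 10 genes described here, Ccl2, Ccl3, Ccl4, Ccl5, Ccl6, Ccl7, Ccl8, Ccl9, Ccl12 and Ccl24, encode CC chemokines, and they were found by symbol among 21289 genes counted in sorted cardiac macrophages of mice. All 10 had counts in every library and all 10 passed the filter on low counts. The cells were CD45+CD64+ leukocytes sorted from the hearts of wild-type male C57BL/6JGpt mice on day 7 after a myocardial infarction. One group of 3 samples came from infarcted mice that were also given curcumol, a sesquiterpene of Curcuma plants, by gavage at 30 mg/kg each day for 7 days. The other group of 2 samples came from infarcted mice without it, and whether these received a vehicle, the age of the mice and whether a sample is 1 heart or a pool are not stated in the labels. No hearts without infarction were analysed here, so every value is from infarcted hearts. With samples this few, and their origin in separate animals unstated, p-values cover the spread between these libraries only.

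CC chemokines are small secreted proteins with a pair of adjacent cysteines near the amino terminus. They bind receptors of the CCR family, which couple to G proteins, and so draw leukocytes along a gradient. Ccl2, Ccl7, Ccl12 and Ccl8 belong to the monocyte chemoattractant group, and Ccl2 acting on Ccr2 is the best known signal that brings monocytes into the infarcted heart. Ccl3 and Ccl4 are the macrophage inflammatory proteins, and Ccl3 and Ccl5 act on Ccr1. Ccl6 and Ccl9 are rodent ligands of Ccr1, and Ccl24, or eotaxin-2, attracts eosinophils through Ccr3. Activated macrophages are known to transcribe Ccl2, Ccl3 and Ccl4 within hours of a stimulus, while Ccl8 and Ccl24 are commonly reported in resident and alternatively activated macrophages.

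The genes lie in a few blocks. In the RefSeq gene order of GRCm38.p6, Ccl2, Ccl7, Ccl11, Ccl12, Ccl8 and Ccl1 follow each other without another protein-coding gene between them on chromosome 11, and so do Ccl5, Ccl9, Ccl6, Ccl3 and Ccl4 further along the same chromosome. Ccl24 lies next to Ccl26 on chromosome 5. RefSeq start-site sequences were at hand for 5 of the 10 members, Ccl3, Ccl6, Ccl8, Ccl9 and Ccl12, each reaching from 250 bases before to 50 bases after the start. Ccl8 and Ccl12 are neighbours that both had positive fold changes and are shown to compare them. Ccl3 was the only gene lower in every curcumol library with a sequence at hand, and it need not represent the others. Ccl9 was nearly level between the groups. Coordinates are GRCm38.p6, with Ccl8 and Ccl12 on the plus strand and Ccl3 and Ccl9 on the minus strand. In Ccl8 and Ccl12 capitals mark runs of 8 or more bases that are identical and aligned between them, in Ccl9 they mark motif matches, and Ccl3 has neither.
Ccl8, chr11:82114935-82115234: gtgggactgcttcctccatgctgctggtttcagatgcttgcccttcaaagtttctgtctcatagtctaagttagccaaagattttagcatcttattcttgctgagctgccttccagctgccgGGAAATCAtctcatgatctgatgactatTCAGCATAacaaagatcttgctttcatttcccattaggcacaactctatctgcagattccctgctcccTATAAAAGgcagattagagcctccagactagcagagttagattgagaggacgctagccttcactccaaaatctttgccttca
Ccl12, chr11:82101595-82101894: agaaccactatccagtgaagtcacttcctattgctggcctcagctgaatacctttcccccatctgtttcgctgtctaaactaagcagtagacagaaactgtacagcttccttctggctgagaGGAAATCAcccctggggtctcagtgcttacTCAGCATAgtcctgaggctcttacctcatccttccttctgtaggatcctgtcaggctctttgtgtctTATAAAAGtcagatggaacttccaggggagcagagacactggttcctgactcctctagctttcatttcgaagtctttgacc
Ccl3, chr11:83649329-83649628: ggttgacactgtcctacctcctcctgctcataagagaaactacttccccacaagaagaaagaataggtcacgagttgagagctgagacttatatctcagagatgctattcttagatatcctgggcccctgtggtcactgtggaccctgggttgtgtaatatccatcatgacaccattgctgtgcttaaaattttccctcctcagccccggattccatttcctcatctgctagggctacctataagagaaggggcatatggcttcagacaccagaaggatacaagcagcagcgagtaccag
Ccl9, chr11:83578587-83578886: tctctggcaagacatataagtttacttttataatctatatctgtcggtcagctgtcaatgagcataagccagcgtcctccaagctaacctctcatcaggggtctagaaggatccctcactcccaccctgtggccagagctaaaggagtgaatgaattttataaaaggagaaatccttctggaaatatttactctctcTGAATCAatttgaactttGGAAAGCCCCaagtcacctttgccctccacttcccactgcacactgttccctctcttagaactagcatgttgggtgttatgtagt
Ccl8 and Ccl12 shared 63.9% of 277 aligned bases, the highest of the 10 pairs among the 5 sequences, which went down to 51.1% for Ccl12 and Ccl3. Ccl6 and Ccl9 came next with 62.9% and shared 4 such runs, the longest of 13 bases. The 3 runs shared by Ccl8 and Ccl12 were GGAAATCA, TCAGCATA and TATAAAAG, a TATA-box type sequence that begins 32 bases before the Ccl8 start and 31 before the Ccl12 start. On either strand these runs occurred in 1.21%, 0.545% and 1.70% of 32851 start-site sequences of the same length. TATAAAAG also occurs in the Ccl9 sequence above, in small letters there, and Ccl12 and Ccl9 shared 1 aligned run of 8 bases. The NF-kB consensus was found in Ccl9 alone (GGAAAGCCCC as printed, a minus-strand match) and in 8.46% of all sequences. The AP-1 type sequence TGANTCA was again found in Ccl9 alone and in 7.81% of all, and the core of the interferon-stimulated response element (ISRE) in none of the 5 and in 3.44% of all. Both strands were searched and no matches overlapped within these 5 sequences. A match is a description of letters and does not show binding.

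Totals lay between 39768705 and 43315822 counts per library, so depth was even and the rarest member, Ccl5, still had 667 counts or more. The number of genes with a count was less even, at 12243 and 12915 without curcumol and 17078 to 18501 with it. Of the sorting gate, Fcgr1, which encodes CD64, lay between 267 and 350.0 CPM (counts scaled to the same total in each library). Ptprc, which encodes CD45, stood at 293 and 244 CPM without curcumol and at 451, 489 and 318 CPM with it. The summed level of 16 macrophage genes lay between 53151 and 56764 CPM, of which Lyz2 alone made up 21973 to 24599 CPM. Within that even sum 8 genes were higher and 3 lower in every curcumol library, against 36.6% and 9.31% of all tested genes. Marker sums of some other cells did not overlap between the groups, with 14 neutrophil genes summing to 566 and 460 CPM without it and 1869 to 4000 CPM with it and 10 fibroblast genes to 34.3 and 28.7 CPM without it and 139 to 389 CPM with it. Endothelial and cardiomyocyte genes were likewise higher in every curcumol library, at 26.1 and 31.5 against 69.9 to 128 CPM and 26.3 and 55.9 against 111 to 134 CPM. The sums overlapped for T and NK, B (226 and 224 against 197 to 280.1 CPM), dendritic (63.0 and 43.8 against 54.4 to 89.3 CPM) and eosinophil and mast cell genes (24.4 and 7.22 against 14.9 to 21.4 CPM). The neutrophil markers Ly6g and Camp were at 0 in both untreated libraries. In bulk samples fewer cells of a type and less RNA per cell cannot be told apart.

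The CC chemokines split into a group that was lower and a single gene that was higher in every curcumol library. Ccl2, Ccl3, Ccl4 and Ccl7 were lower in each of the 3 curcumol libraries than in either untreated one, and Ccl8 was higher in each. For Ccl5, Ccl6, Ccl9, Ccl12 and Ccl24 the libraries of the 2 groups overlapped. None of the 10 passed an adjusted p of 0.05 over 14508 tested genes in edgeR's quasi-likelihood test, a threshold that 0.0689% of all tested genes passed upward and 0.138% downward. At an unadjusted p under 0.05, 4 members were lower, where 6.51% of tested genes were, and 1 was higher, where 18.1% were. Non-overlapping libraries were seen for 4 lower members, against 9.31% of tested genes, and for 1 higher member, against 36.6%. The median log2 fold change of the 10 members was 0.24 (-0.20 without curcumol replicate 1) and that of all tested genes 0.15. Total counts as the scaling moved the latter to 0.34, while CPM values are on total counts throughout.

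**Figure D1:**
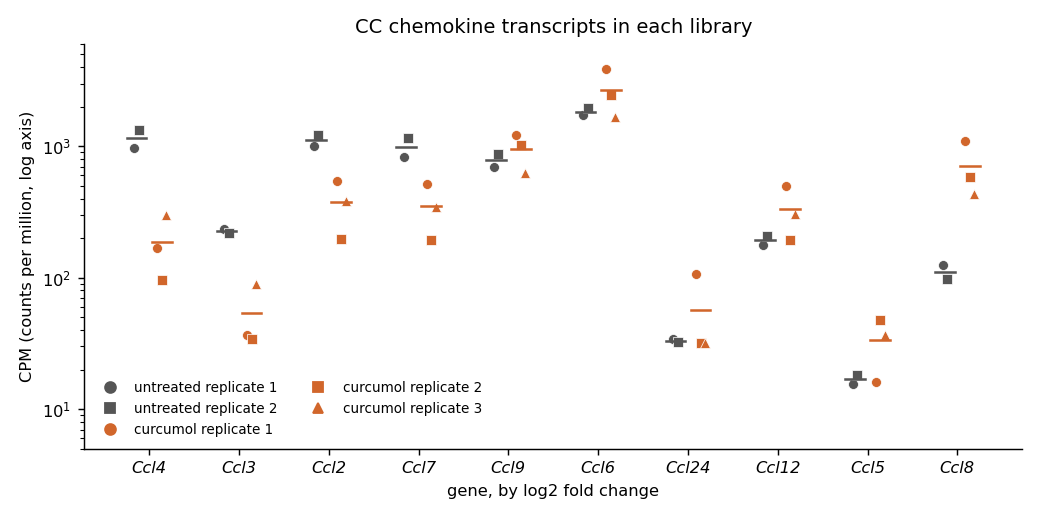
Level of each CC chemokine in CPM (log axis) in each library, with grey symbols for untreated and orange for curcumol samples, symbol shape for the replicate number and short lines for group means. Ccl4, Ccl3, Ccl2 and Ccl7 at the left have all orange symbols below the grey ones, and Ccl8 at the right has all of them above.

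The macrophage inflammatory protein genes Ccl4 and Ccl3 had the most negative fold changes of the 10. The 2 untreated libraries held 970.0 and 1332 CPM of Ccl4, and curcumol replicates 1, 2 and 3 held 169, 96.7 and 299 CPM. The highest curcumol library was thus still below the lower untreated one. Its log2 fold change, curcumol minus untreated, was -2.80 ± 0.45 (SE), a 6.96-fold lower level, with an edgeR adjusted p of 0.0637. Ccl3, its neighbour on the chromosome, stood at 236 and 218 CPM without and at 36.7, 34.1 and 89.9 CPM with curcumol. Again no library overlapped, and replicate 3 was the highest of the curcumol group for both genes. The log2 fold change of Ccl3 was -2.28 ± 0.43, or 4.86-fold lower (edgeR adjusted p = 0.0651). Both had a 95% interval below 0, from -3.88 to -1.72 for Ccl4 and from -3.31 to -1.25 for Ccl3.

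The monocyte chemoattractants Ccl2 and Ccl7 were lower by a similar amount to each other. The level of Ccl2 was 1012 and 1215 CPM without curcumol, and 543, 197 and 383 CPM with it. Ccl7, which shares the receptor Ccr2 with it, stood at 828 and 1157 CPM without and at 519.5, 193 and 347 CPM with curcumol. In both genes curcumol replicate 1 was highest and replicate 2 lowest, and no library crossed into the other group. Their log2 fold changes were -1.75 ± 0.41 and -1.66 ± 0.41, with edgeR adjusted p of 0.0708 and 0.0755. The spread of the curcumol libraries was wide, with a coefficient of variation of 46.4% for Ccl2 and 46.3% for Ccl7 (n = 3) against 12.9% and 23.4% in the untreated libraries (n = 2).

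Ccl8, a monocyte chemoattractant of the same block, went the other way. It stood at 125 and 97.3 CPM without and at 1096, 584 and 436 CPM with curcumol. Every curcumol library was more than 3 times the higher untreated one. The mean was 111 ± 19.6 CPM (SD, n = 2) against 705 ± 346 CPM (SD, n = 3), and the log2 fold change was 2.49 ± 0.46, a 5.61-fold higher level (95% interval 1.39 to 3.59, edgeR adjusted p = 0.0651). Ccl12, the gene just before it, stood at 176 and 208 CPM without and at 503, 194 and 303 CPM with curcumol. Curcumol replicate 2 lay within the untreated range and the other 2 above it. Its log2 fold change of 0.62 ± 0.40 had a 95% interval of -0.35 to 1.60 (edgeR adjusted p = 0.414), and it was 0.17 without curcumol replicate 1.

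**Figure D2:**
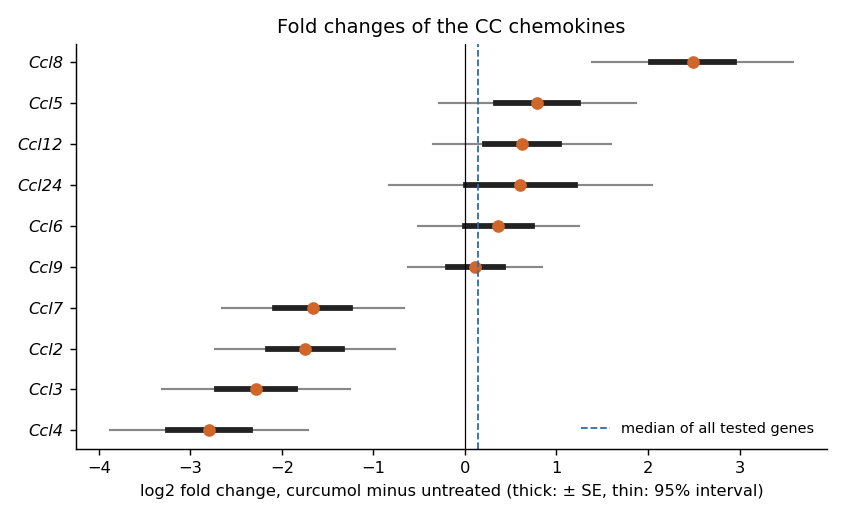
Log2 fold change (curcumol minus untreated) of each CC chemokine from edgeR, with thick bars for ± SE, thin bars for the 95% interval and a dashed line at the median of all tested genes. The intervals of Ccl4, Ccl3, Ccl2 and Ccl7 lie below 0 and that of Ccl8 above it, while those of the other 5 genes include 0.

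The rodent Ccr1 ligands Ccl6 and Ccl9 overlapped between the groups. Ccl6 stood at 1722 and 1941 CPM without and at 3882, 2446 and 1669 CPM with curcumol, so that replicates 1 and 2 were above and replicate 3 below the untreated libraries. Its log2 fold change was 0.37 ± 0.37 (95% interval -0.51 to 1.25), and -0.0405 without curcumol replicate 1. Ccl9 stood at 701 and 868 CPM without and at 1221, 1031 and 630.3 CPM with curcumol. The order of its curcumol libraries was that of Ccl6, and its log2 fold change was 0.11 ± 0.30 (95% interval -0.62 to 0.85), turning to -0.13 without curcumol replicate 1 and to -0.0097 without untreated replicate 1. At its upper bound each interval still allows a higher level with curcumol, and at its lower bound a lower one.

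Ccl5 and Ccl24 were the rarest members. Ccl5, a chemokine that T and NK cells also make, stood at 15.5 and 18.2 CPM without and at 16.2, 47.6 and 36.5 CPM with curcumol. Curcumol replicate 1 lay between the untreated libraries and the other 2 were at least 2 times as high. Its log2 fold change was 0.79 ± 0.45 (95% interval -0.29 to 1.86, edgeR adjusted p = 0.341). The summed level of 14 T and NK cell genes was 94.6 and 120 CPM without and 104, 219 and 166 CPM with curcumol, which ranks the 5 libraries as Ccl5 does. Single genes of the list differed. Cd3e, a defining T cell gene, was at 4.62 CPM or less in every library and at 0 in untreated replicate 1. Nkg7 stood at 16.9 and 7.54 CPM without and at 13.3, 31.9 and 35.1 CPM with curcumol. Il7r stood at 39.6 and 34.8 CPM without and at 14.8, 43.6 and 30.9 CPM with it. Among these 14 genes Gzmb and Ncr1 were at 0 in both untreated libraries, and the part of these cells in the Ccl5 values was not tested. Ccl24 stood at 34.3 and 32.3 CPM without and at 107, 31.9 and 31.7 CPM with curcumol. Its high level was thus that of curcumol replicate 1, and its log2 fold change of 0.60 ± 0.60 (95% interval -0.83 to 2.04) became -0.27 without that library.

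Ratios of counts within a library do not depend on how libraries are scaled, and they showed which members kept step. The ratio of Ccl7 to Ccl2 stayed between 0.818 and 0.980 in all 5 libraries, although the level of Ccl2 itself ranged from 197 to 1215 CPM. The ratio of Ccl6 to Ccl9 stayed between 2.23 and 3.18. That of Ccl4 to Ccl3 kept step less closely, from 2.83 to 6.10, the largest 2.16 times the smallest. The groups overlapped in each of these ratios. In contrast, Ccl12 to Ccl2 was 0.174 and 0.171 without curcumol, and 0.925, 0.986 and 0.792 with it. This ratio was nearly constant within each group and did not overlap between them, although Ccl12 itself overlapped. The ratio of Ccl8 to Ccl2 was 0.124 and 0.0800 without and 2.02, 2.97 and 1.14 with curcumol. Ccl8 was therefore the rarer of this pair in both untreated libraries and the more counted in all 3 curcumol libraries. The ratio of Ccl8 to Ccl12 was also apart, at 0.709 and 0.467 without and 2.18, 3.01 and 1.44 with curcumol. The pairs were picked with the levels in view, so these ratios are given without a test.

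**Figure D3:**
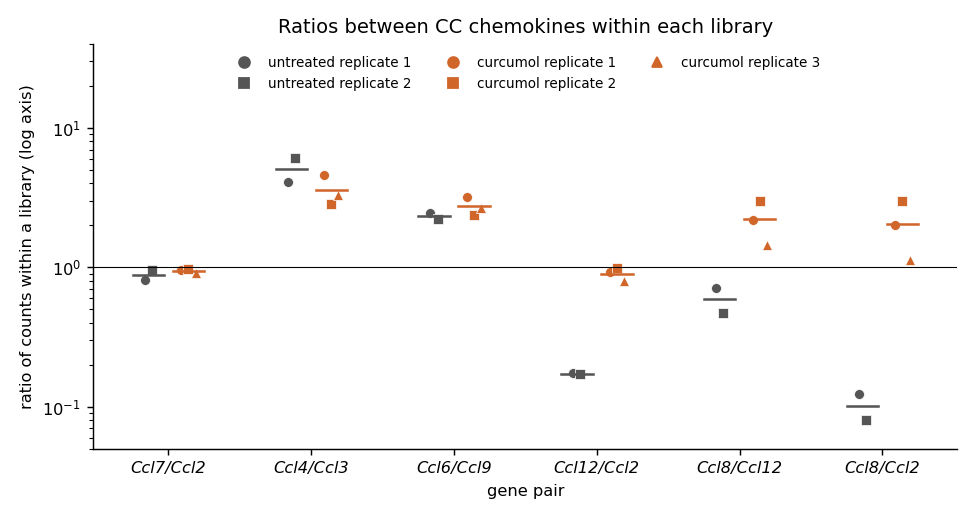
Ratio of the counts of 2 CC chemokines within each library (log axis), with grey symbols for untreated and orange for curcumol samples, symbol shape for the replicate number and short lines for group means. The ratios Ccl7 to Ccl2, Ccl4 to Ccl3 and Ccl6 to Ccl9 overlap between the groups, while Ccl12 to Ccl2, Ccl8 to Ccl12 and Ccl8 to Ccl2 are higher in all curcumol libraries.

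The order of these genes along the chromosome can be set beside their values. In the first block Ccl2 and Ccl7 were lower, Ccl12 had a positive fold change whose interval included 0, and Ccl8 was higher. Ccl11, between Ccl7 and Ccl12, had 14 counts in curcumol replicate 1 and none elsewhere, and was not tested. In the second block Ccl5, Ccl9 and Ccl6 overlapped between the groups, and Ccl3 and Ccl4 at its end were lower. Reads shared between members are a possible source of error in such counts. The longest run of bases shared by transcripts of any pair was 25, for Ccl6 and Ccl9, and 23 for Ccl2 and Ccl7, while Ccl8 and Ccl12, the closest pair by coding sequence with 70.7% identity, shared no run above 13. Ccl2 and Ccl12 had 68.1% identical coding bases and a longest shared run of 17.

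Levels per transcript length (TPM, counts per base of transcript scaled to the same sum in each library) allow the genes to be ranked against each other. In the untreated libraries Ccl4 had the highest mean, 3173 ± 697 TPM, followed by Ccl2 with 2493 ± 315, Ccl6 with 2315 ± 189 and Ccl7 with 2254 ± 523 TPM (SD, n = 2). Neighbours among these 4 overlapped in their libraries. Ccl12 with 651 ± 74.97 TPM came next and was separate from those above and from Ccl3 below, at 540.3 ± 31.9 TPM. Ccl9 and Ccl8 followed with 475 ± 70.4 and 396 ± 70.8 TPM, with overlap between Ccl3 and Ccl9 and between Ccl9 and Ccl8. Ccl5 and Ccl24 were last with 57.7 ± 6.27 and 46.8 ± 2.09 TPM.

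With curcumol the order began with Ccl6 at 3461 ± 1459 and Ccl8 at 2578 ± 1259 TPM (SD, n = 3), and Ccl12 came next with 1153 ± 532 TPM. Ccl2, Ccl7, Ccl9 and Ccl4 followed at 854 ± 387, 818 ± 371, 599 ± 195 and 527 ± 274 TPM. Of all 9 neighbouring pairs only Ccl4 and Ccl3 (129 ± 72.4 TPM) were separate in every curcumol library. Ccl5 and Ccl24 were again last, at 118 ± 58.4 and 81.7 ± 61.9 TPM. Ccl9 was ranked with a transcript of 3006 bases, the longest coding one annotated, and with coding lengths instead only 2 untreated and 3 curcumol ranks were the same, so the order within a group depends on the length used.

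As shares of the summed TPM of the 10 genes, the make-up differed more than the sum. The sum was 11149 and 13654 TPM without and 14694, 8363 and 7899 TPM with curcumol, and the groups overlapped. Ccl4 made up 24.0% and 26.9% of it without and 3.23%, 3.38% and 10.4% with curcumol. Ccl8 made up 4.0% and 2.53% without and 27.1%, 26.4% and 19.6% with curcumol. Ccl6 made up 19.6% and 17.9% without and 34.0%, 39.2% and 26.6% with curcumol, with the lowest curcumol library above both untreated ones. As parts of a whole, shares of different genes are not independent of each other.

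**Figure D4:**
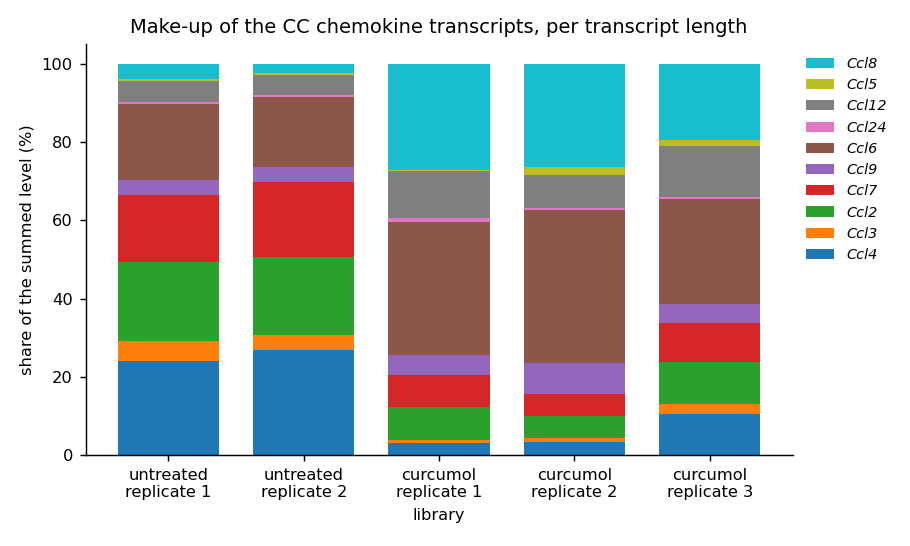
Share of each CC chemokine in the summed TPM of the 10 genes (%), stacked, in each library. Ccl4, Ccl3, Ccl2 and Ccl7 at the bottom fill most of the untreated bars, and Ccl6 and Ccl8 take the largest parts of the curcumol bars.

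The receptors were read as the other side of the same system, from a list of 15 CC and atypical chemokine receptor genes, and 11 further CC chemokine genes were listed with them. Of 12 tested receptors and 6 tested further chemokines none passed the edgeR adjusted p of 0.05. The lowest adjusted p values were 0.0651 among receptors and 0.0664 among chemokines, and at an unadjusted p under 0.05 there were 4 receptors higher and 1 lower, and 2 chemokines higher and none lower, where 18.1% of all tested genes were higher and 6.51% lower. Over both lists DESeq2 called 3 higher and 1 lower, where it called 12.5% of all its genes higher and 4.37% lower. For limma-voom it was 2 higher and 1 lower, where 9.72% and 1.73% of all genes were called. Without a filter or with a replicate block 1 was called lower, against 0.502% and 0.207% of all genes. Leaving out 1 curcumol library gave none higher, and 1 lower only without replicate 3, where 0.109% of all genes were called lower. The median log2 fold change was -0.18 over the 12 receptors and 0.32 over the 6 chemokines, of which 7 and 2 were negative. The receptor median was 0.37 with DESeq2, 0.38 without a filter, 0.76 with limma-voom, 1.11 with a replicate block, 0.0036 with total counts and 4.67 without untreated replicate 2, so its sign is not settled. The chemokine median was 1.53 with limma-voom, 1.51 with a replicate block, 3.85 without untreated replicate 2 and 0.84 without curcumol replicate 2. Several tested genes of both lists had no count in 1 or both untreated libraries. Among them were the chemokines and most of the receptors that were higher at edgeR's unadjusted p under 0.05. Their fold changes rest on low counts, and the part of this in the medians was not tested.

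Ccrl2, an atypical receptor that holds the chemoattractant chemerin at the cell surface, followed the pattern of Ccl3 and Ccl4. It stood at 996 and 966 CPM without and at 145, 148 and 388 CPM with curcumol, with replicate 3 again the highest of the curcumol group. Its log2 fold change was -2.31 ± 0.44 (edgeR adjusted p = 0.0651). It passed with DESeq2 (adjusted p = 1.42e-05), limma-voom (0.0179), no filter (0.0234), a replicate block (0.0152) and without curcumol replicate 3 (0.0336). In the block fit too, curcumol replicate 3 has no part in the fold change, as no untreated sample has number 3. The log2 fold change was -2.26 without untreated replicate 1 and -2.33 without untreated replicate 2. The highest edgeR adjusted p of Ccrl2 was 0.105, without curcumol replicate 2.

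Ccr1, the receptor of Ccl3, Ccl6 and Ccl9, stood at 382 and 372 CPM without and at 458, 277 and 407 CPM with curcumol. Its log2 fold change was -0.17 ± 0.25 (95% interval -0.76 to 0.42), and the sign turned with total counts as the scaling (0.0134) or without curcumol replicate 2 (0.0274). Ccr2, the receptor of Ccl2, Ccl7 and Ccl12 on recruited monocytes, stood at 571 and 449 CPM without and at 547, 452 and 254 CPM with curcumol. The groups overlapped and the log2 fold change was -0.47 ± 0.34 (95% interval -1.29 to 0.35). Ccr1l1 and Ccl27a were the others with the smallest p. Neither had a count in the untreated libraries, and they stood at 1.02, 1.65 and 0.855 CPM and at 0.682, 1.90 and 2.54 CPM with curcumol. Against a floor of 3 counts per library the curcumol means were at least 16.3-fold and 23.7-fold higher, for counting error only. The lowest curcumol library of each gene was less far above that floor. Ccl27a has near-identical copies that can take its reads. The untreated libraries held fewer genes with a count at all, and the part of this in such values was not tested. Ccr3, the receptor of Ccl24, and Ccr8, a receptor of Ccl8, were named for their ligands after their values were seen, and lay at or below 5.26 CPM in every library.

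**Figure D5:**
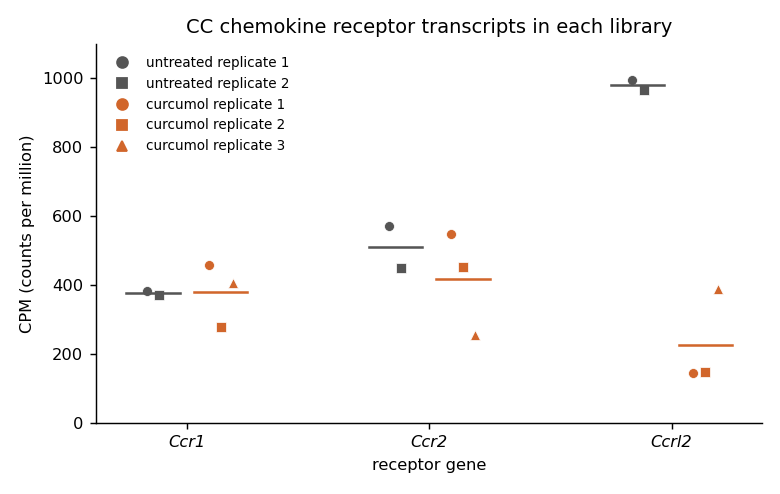
CPM of 3 CC chemokine receptor genes in each library, with grey symbols for untreated and orange for curcumol samples, symbol shape for the replicate number and short lines for group means. Ccrl2 is lower in all curcumol libraries, and Ccr1 and Ccr2 overlap.

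Genes with the most similar profile were taken for the 2 members with the smallest p in each direction, from 4210 tested genes with an average log2 CPM of at least 5. Members, and symbols of ribosomal proteins or of the Gm, LOC and Rik types, were left out. Nearest to Ccl4 over the 5 libraries were Atf3, a stress-induced transcription factor (1398 and 1659.6 CPM against 179.8, 129.6 and 344 CPM), Zfp622 and Phlda1 (125 and 164 against 22.5, 10.8 and 29.3 CPM). Pearson's r of log2 CPM with Ccl4 was 0.995 for each. Atf3 is also on the list of genes known to respond to tissue dissociation, described below. Nearest to Ccl8 were Ebp, an enzyme of cholesterol synthesis, Hps1, a gene of lysosome-related organelles, and Agpat4, an acyltransferase. Their r was 0.999, 0.995 and 0.994, but their log2 fold changes were only 0.19, 0.32 and 0.39 where that of Ccl8 was 2.49, since r takes no account of size. With 5 libraries in 2 groups, all sharing the same 2-group contrast, r is given as a description.

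Sums of further marker lists are given beside the chemokines. A list of 18 genes known to respond to tissue dissociation, immediate early and heat shock genes among them, summed to 38413 and 41100 CPM without and 19852, 13988 and 23078 CPM with curcumol, with 14 of 18 lower in every curcumol library and none higher in every one, against 9.31% and 36.6% of all tested genes. The curcumol libraries stood in the same order as for Ccl3 and Ccl4, replicate 3 highest and replicate 2 lowest. That was not the order of Ccl2 and Ccl7, where replicate 1 was highest. From untreated replicate 1 to 2 the sum of the list rose. Ccl2 (1012 to 1215 CPM), Ccl4 (970 to 1332 CPM) and Ccl7 (828 to 1157 CPM) rose as well, while Ccl3 fell from 236 to 218 CPM. None of the 18 was at 0 in a group. The 16 resident cardiac macrophage genes summed to 5995 and 5333 CPM without and 11940, 9420 and 7923 CPM with curcumol, in the order of Ccl8, with 13 of 16 higher and 2 lower in every curcumol library, against the same 36.6% and 9.31% of all tested genes. Single resident markers were less even, with Timd4 at 19.3 and 13.7 CPM against 68.5, 39.0 and 11.7 CPM and Lyve1 at 75.2 and 97.8 CPM against 440.0, 416 and 99.3 CPM. The 15 recruited monocyte genes overlapped, at 3986 and 3819 CPM without and 4555, 3338 and 3558 CPM with curcumol. The part of dissociation, of a different mix of macrophages or of other cells in the chemokine values was not tested.

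The calls for these genes depended on the test and on single libraries. DESeq2 and limma-voom each called Ccl2, Ccl3, Ccl4 and Ccl7 lower and Ccl8 higher, where DESeq2 called 4.37% of its genes lower and 12.5% higher and limma-voom 1.73% and 9.72%. Without a filter on low counts edgeR called Ccl2, Ccl3 and Ccl4 lower, where 0.502% of genes were called lower, and Ccl8 higher, where 1.52% were. With the replicate number as a block Ccl3 and Ccl4 were called lower and Ccl8 higher, against 0.207% and 0.103% of genes. No untreated sample has number 3, so curcumol replicate 3 has no part in the fold changes of that fit. Without untreated replicate 1 or 2 all 5 genes passed, with edgeR adjusted p of 0.0158 and 0.0375 for the weakest of them. In those fits 3.96% and 4.44% of genes were called lower and 14.8% and 18.1% higher, and the lone untreated sample is assumed to vary like the curcumol group. Without curcumol replicate 3 only Ccl3 passed, where 0.109% of genes were called lower and 0.029% higher, and without curcumol replicate 1 or 2 none of the 10 did. None of the 10 passed with RLE factors, with total counts as the scaling or at a CPM of at least 1 either.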

How the data were processed

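Bulk RNA sequencing of 5 sorted cardiac macrophage samples was analysed. The authors deposited whole-number read counts per gene without normalization, made with fastp, HISAT2, HTSeq and Bowtie2 (versions unstated), per the submitters' processing notes. No source used here states the genome build, and 2 different library kits are named, so strand is not settled. Columns were tied to samples by title. Every pair of libraries differed beyond sampling noise (chi-square per gene of 92.1 or more).

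CPM used total counts. Fold changes came from edgeR 4.0.16 (R 4.3.3): TMM factors, filterByExpr (minimum count 10), quasi-likelihood test with group as the only term, two-sided, Benjamini-Hochberg adjustment over 14508 tested genes, SEs from the F statistic. TMM places the median log2 fold change of all genes at 0.15, and total counts at 0.34. TPM used the longest coding transcript in GENCODE M21 (17506 genes). The fit was also run on simulated data with less spread than these, which does not show how many true changes it misses here. No exact permutation test was run, since 2 against 3 samples allow no p below 0.1. Alternatives were DESeq2 1.42.0, RLE factors, total counts, no filter, limma-voom 3.58.1, a minimum CPM of 1 in 2 samples, a replicate block and leaving out each sample. Start-site sequences are from RefSeq (GRCm38.p6), and protein sequences were not used. Ratios, aligned start sites and coding identity were chosen after seeing the data. Named were all members, receptors Ccr1 and Ccr2, the 3 other receptors or CC chemokines with the smallest p, and the 3 genes most alike to a member in each direction, except 1 gene not reported here. The members and lists were chosen with earlier results of these data known.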

Additional observations from a re-analysis of the deposited data

How the results depend on the processing

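With 2 against 3 samples the number of calls depended on the tool and on single libraries, and the cause was not tested. All genes called higher and lower numbered 10 and 20 as reported, 1964 and 689 with DESeq2, 4 and 6 with total counts, 313 and 103 without a filter, 57 and 41 at a CPM of at least 1 and 1410 and 251 with limma-voom. Leaving out 1 library gave 0 to 2835 higher and 0 to 696 lower, the zeros without curcumol replicate 1 (lower only) or 2, where edgeR's unadjusted p was under 0.05 for 719 lower and for 1791 higher and 592 lower genes. Of the 10 chemokines, none was called as reported, nor with RLE factors, total counts or a CPM of at least 1. DESeq2 and limma-voom each called 1 higher and 4 lower, and edgeR without a filter 1 and 3. With 1 curcumol library left out none was called higher, and only Ccl3 lower, without curcumol replicate 3. The log2 fold changes of those called were, with DESeq2, -1.76 (Ccl2), -2.29 (Ccl3), -2.81 (Ccl4), -1.68 (Ccl7) and 2.48 (Ccl8), without a filter -1.74 (Ccl2), -2.28 (Ccl3), -2.80 (Ccl4) and 2.49 (Ccl8), and with limma-voom -1.88 (Ccl2), -2.42 (Ccl3), -2.93 (Ccl4), -1.77 (Ccl7) and 2.38 (Ccl8).

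With 1 library left out they ranged from -2.14 to -1.43 (Ccl2), -2.86 to -2.03 (Ccl3), -3.28 to -2.47 (Ccl4), -2.08 to -1.36 (Ccl7) and 1.99 to 2.75 (Ccl8). The sign of 3 genes turned, with ranges of -0.0405 to 0.62 (Ccl6), -0.13 to 0.35 (Ccl9, at -0.0097 without untreated replicate 1) and -0.27 to 0.90 (Ccl24). All 3 turned without curcumol replicate 1, which left 3 positive and 7 negative members, against 6 and 4 as reported and 5 and 5 without untreated replicate 1. The sign of Ccr1 turned with total counts (0.0134) and without curcumol replicate 2 (0.0274), its range being -0.35 to 0.0274. With coding lengths 2 untreated and 3 curcumol ranks stayed.

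The replicate numbers are not said to pair samples. No untreated sample has number 3, so a block by number takes no fold change from curcumol replicate 3. Deviations from the group means correlated at 0.0208 for number 1 and -0.0327 for number 2. With the number as a replicate block 15 genes were called higher and 30 lower, and of the chemokines Ccl3 (-2.86), Ccl4 (-3.33) and Ccl8 (2.68) passed, 1 higher and 2 lower.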
